A study of Arabidopsis thaliana with 9 samples.

Results

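The transcriptome of p5cs1-4 seedlings labelled as released from low water potential was compared with that of p5cs1-4 seedlings kept on control medium, which uses 2 of the 9 libraries of the series. The p5cs1-4 line of Arabidopsis thaliana carries a T-DNA insertion in P5CS1, the gene of the first enzyme of proline synthesis from glutamate, in the Col-0 background. In labelled release, seedlings grown for 7 days were kept for 96 h on agar with polyethylene glycol at -1.2 MPa and then for 10 h on fresh control medium. In the control, seedlings of the same age spent the 96 h on fresh control medium at -0.25 MPa. Each library held polyadenylated RNA of whole seedlings, pooled from 3 experiments before sequencing, so each group is 1 library and no difference below has a replicate check or a p-value. Wild type (WT, Col-0) and aba2-1, a mutant impaired in the synthesis of abscisic acid (ABA), went through the same treatments, and their values are set beside those of p5cs1-4 without a test of the difference.

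A plant short of water makes ABA, which binds receptors of the PYR/PYL family. The bound receptor blocks clade A protein phosphatases 2C, which frees SnRK2 kinases to activate transcription factors of the ABF family, and these switch on genes of protective proteins. Proline is a solute that accumulates at low water potential and is broken down again after relief, and growth and photosynthesis genes are commonly lowered during the stress.

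The label of the treatment went against known markers. PRODH1 (locus AT3G30775, chromosome 3, 12448636 to 12451556, minus strand in TAIR10.1) makes the dehydrogenase that opens proline breakdown, and its transcript is known to climb once plants are relieved of low water potential. Its level was 20.1 CPM (reads of a gene over all reads of its library, scaled between libraries) in labelled release, against 125 CPM in the control, while the p5cs1-4 library labelled stress had 240.4 CPM. RAB18 (AT5G66400), the gene of a dehydrin that ABA and drying are known to switch on, reached 4778 CPM in labelled release, against 22.4 CPM in the control, while labelled stress had 81.4 CPM. The table of the library titled release is itself named with the letter S. The treatment is therefore given only as the label has it, and no direction below is read as an effect of release or of stress.

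The labelled release library held 14580141 reads on genes and the control library 18273148, the 2 largest totals of the 9 libraries, which began at 4898426. The 10 genes with most reads took 4.53% of the reads in labelled release and 5.26% in the control. Of 33518 genes in the tables, 16770 reached 5 CPM in either library. In labelled release 1408 of these (8.4%) were higher by 2-fold or more and 1976 (11.8%) lower, and 20.2% were called in either direction, with log2 ratios taken of CPM + 1. A gene that reached 5 CPM in only 1 of the 2 libraries had its direction fixed by that floor, and such members are counted beside the lists where they make up much of a call. The share of such genes among all 16770 was not counted. Whether a list holds more of them than other genes do is therefore not read. The median log2 ratio over all 16770 genes was 0.00, and the middle 50% of genes lay between -0.47 and 0.38. At 4-fold the counts were 435 higher and 497 lower, at 16-fold 76 and 51, and at 64-fold 20 and 4. Among the genes past 2-fold, 41.6% were higher. With the RPKM as deposited that share was 51.9%, and the median of all genes moved to 0.17. Folds carry a 95% interval in brackets, which covers counting error only.

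**Figure D1:**
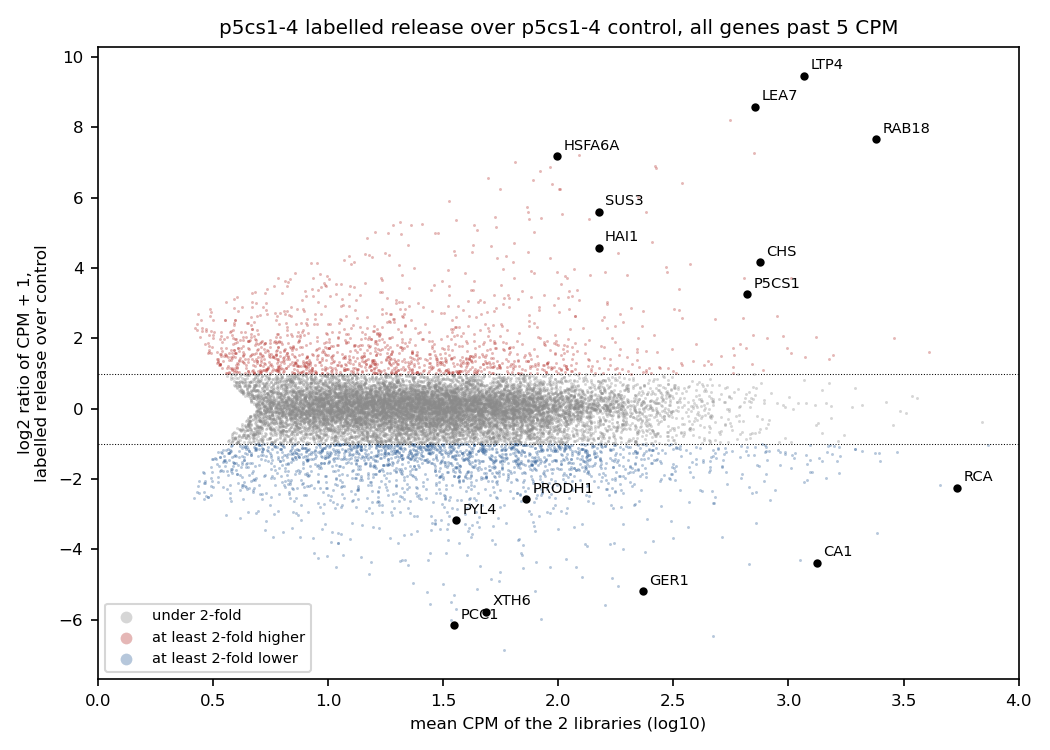
The log2 ratio of CPM + 1, labelled release over control, is plotted against the log10 of the mean CPM of the 2 p5cs1-4 libraries for the 16770 genes past 5 CPM, 1 point a gene. The dotted lines mark 2-fold, and the 15 black points are named genes, with LTP4, LEA7 and RAB18 highest and PCC1 and XTH6 lowest among those named.

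P5CS1 itself (locus AT2G39800, chromosome 2, 16598072 to 16603319, minus strand) gave reads in both p5cs1-4 libraries, with 1199 CPM in labelled release and 125 CPM in the control, a difference of 9.58-fold (9.16 to 10.02). Gene-level counts leave it unknown whether the reads lie before or after the insertion, so full-length transcript cannot be inferred from them. In WT the gene stood at 3918 CPM in labelled release and 195 CPM in the control. P5CS2, its near relative, encodes a second form of the same enzyme and was 3.24-fold (3.099 to 3.395) higher in p5cs1-4 labelled release, with 478 CPM in labelled release and 147 CPM in the control. P5CR, whose product completes proline synthesis, was under 2-fold, with 189.7 CPM in labelled release and 108 CPM in the control. DELTA-OAT, the gene of ornithine aminotransferase, was higher as well, at 93.4 CPM in labelled release against 29.8 CPM in the control, which is 3.13-fold (2.83 to 3.47). On the side of breakdown the enzyme genes went in opposite directions, PRODH1 being 6.196-fold (5.496 to 7.01) lower and P5CDH, the gene of the second step, 3.63-fold (3.37 to 3.903) higher, with 205 CPM in labelled release and 56.4 CPM in the control. Of the proline transporter genes, PROT1 had 16.3 CPM in labelled release and 22.3 CPM in the control, and PROT2 19.99 CPM in labelled release and 19.6 CPM in the control, both under 2-fold. In all, 11 of the 12 proline genes reached 5 CPM, of which 4 were higher by 2-fold or more and 2 lower, PRODH1 and AT5G38710 (median log2 ratio 0.75). AT5G38710 reached 5 CPM in the control only.

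The ABA pathway differed in opposite directions along its length, with receptor genes lower and phosphatase genes higher. Of the 8 receptor genes past 5 CPM (10 listed), 6 were at least 2-fold lower and none was higher, with a median log2 ratio of -1.44. PYL4 (AT2G38310) had 6.402 CPM in labelled release against 65.5 CPM in the control, and was 10.2-fold (8.32 to 12.7) lower. PYL5 followed with 6.27 CPM in labelled release against 36.4 CPM in the control, 5.81-fold (4.68 to 7.28) lower, and PYL8 with 31.9 CPM in labelled release against 99.8 CPM in the control, 3.13-fold (2.83 to 3.47) lower. PYL7, a further receptor gene, had 35.5 CPM in labelled release and 29.99 CPM in the control and PYL9 14.3 CPM in labelled release and 19.8 CPM in the control, both under 2-fold. Of the 8 clade A phosphatase genes past 5 CPM (9 listed), 7 were at least 2-fold higher, with a median of 2.49, although 2 of them, HAI2 and HAI3, reached 5 CPM in labelled release only, and the eighth, HAB2, had 138 CPM in labelled release and 73.8 CPM in the control. The 3 HAI genes, known for strong induction by ABA, had the largest ratios of the list. HAI2 (AT1G07430) had 144 CPM in labelled release against 1.71 CPM in the control, a difference of 84.4-fold (58.6 to 126). HAI1 had 288 CPM in labelled release against 11.1 CPM in the control, or 26.04-fold (22.5 to 30.3), and HAI3 had 18.1 CPM in labelled release against 0.354 CPM in the control, or 51.2-fold (23.2 to 141). ABI1, a founding member of the group, differed less, with 332 CPM in labelled release and 109 CPM in the control.

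Kinase genes were mixed, and most factor genes of the core pathway were higher. OST1, the gene of the SnRK2 kinase that closes stomata, was 2.88-fold (2.53 to 3.30) higher, with 52.5 CPM in labelled release and 18.2 CPM in the control. SNRK2.7 was 5.197-fold (3.53 to 7.87) higher and SNRK2.9 4.52-fold (3.59 to 5.74) higher, whereas SNRK2.8 was 2.801-fold (2.35 to 3.35) lower, and the other 6 of the 10 kinase genes lay within 2-fold. SNRK2.7 reached 5 CPM in labelled release only. Of 9 genes of ABF factors and of the AFP proteins that bind ABI5, 6 passed 2-fold upwards and 1 downwards. ABF2 had 136 CPM in labelled release and 36.1 CPM in the control, ABF4 had 186 CPM in labelled release and 50.6 CPM in the control, and ABI5, an activator best known from germination, had 15.7 CPM in labelled release and 4.07 CPM in the control. These are folds of 3.78-fold (3.45 to 4.14), 3.67-fold (3.399 to 3.97) and 3.87-fold (2.95 to 5.14). ABI5 reached 5 CPM in labelled release only. AFP1 was 6.99-fold (6.01 to 8.17) higher, with 81.1 CPM in labelled release and 11.6 CPM in the control, and AFP3 5.29-fold (4.68 to 6.01) higher. AFP4 was the exception, 5.44-fold (4.42 to 6.75) lower, with 6.86 CPM in labelled release and 37.3 CPM in the control.

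Of 6 genes of ABA synthesis past 5 CPM (10 listed), 3 passed 2-fold, all higher. Of 7 genes of ABA breakdown, conjugation or release from the conjugate, 4 were higher and 1 lower. The 4 were CYP707A1, CYP707A2, CYP707A4 and BGLU18, of which CYP707A2 and CYP707A4 reached 5 CPM in labelled release only. NCED3, the gene of the cleavage enzyme that limits ABA synthesis in dry leaves, had 67.1 CPM in labelled release and 27.2 CPM in the control, a difference of 2.46-fold (2.21 to 2.76). AAO3 and ABA3, which act at the last step, were 2.23-fold (1.98 to 2.503) and 2.31-fold (1.88 to 2.86) higher. ABA1, ABA2 and ABA4, which act before it, lay within 2-fold. CYP707A1, a gene of the hydroxylases that inactivate ABA, had 45.5 CPM in labelled release and 11.2 CPM in the control, or 4.07-fold (3.46 to 4.801) higher, whereas its relative CYP707A3 was 2.97-fold (2.57 to 3.44) lower, with 16.2 CPM in labelled release and 48.1 CPM in the control. BGLU18, whose product releases ABA from its glucose ester, was 3.32-fold (3.24 to 3.41) higher, with 1513 CPM in labelled release and 455 CPM in the control.

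Among genes with a symbol and at most 0.5 of reads shared, the 5 largest log2 ratios were those of 3 genes induced by drying and of 2 lipid transfer genes. The largest belonged to LTP4 (AT5G59310), a lipid transfer protein gene, with 2342 CPM in labelled release and 2.298 CPM in the control, or 1019-fold (746 to 1434). LEA7 (AT1G52690), of the late embryogenesis abundant (LEA) group, had 1434 CPM in labelled release and 2.71 CPM in the control, or 529-fold (397 to 723). LTP3 (AT5G59320) followed with 1112 CPM in labelled release and 2.77 CPM in the control, or 402-fold (302 to 547), then RAB18, at 213-fold (193 to 237), and RD29B (AT5G52300), a marker gene of drought and ABA, with 1413 CPM in labelled release and 8.07 CPM in the control, or 175-fold (148 to 209). LTP3 and LTP4 reached 5 CPM in labelled release only. Of the 8 lipid transfer genes past 5 CPM (11 listed), 3 were at least 2-fold higher and 3 lower, with a median log2 ratio of -0.009. LTP6 was among the lower, with 10.8 CPM in labelled release against 31.2 CPM in the control. The bases before the start of 4 of these 5 genes with a symbol are shown, because ABF factors are known to bind ACGTG elements in promoters. Those of XTH6, a gene at the other end of the ranking, are shown too. Each is the 250 bases before the annotated gene start in RefSeq's TAIR10.1, 5′ to 3′ on the gene's strand, and capitals mark ACGTG, the core of the ABA-responsive element, or its reverse complement CACGT.
RAB18 (AT5G66400, chr5:26519448-26519697, minus strand): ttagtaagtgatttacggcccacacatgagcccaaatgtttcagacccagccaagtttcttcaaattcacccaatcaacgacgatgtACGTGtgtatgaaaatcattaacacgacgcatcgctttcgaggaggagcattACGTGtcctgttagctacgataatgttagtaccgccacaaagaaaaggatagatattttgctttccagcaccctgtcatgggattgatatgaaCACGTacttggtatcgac
RD29B (AT5G52300, chr5:21236771-21237020, plus strand): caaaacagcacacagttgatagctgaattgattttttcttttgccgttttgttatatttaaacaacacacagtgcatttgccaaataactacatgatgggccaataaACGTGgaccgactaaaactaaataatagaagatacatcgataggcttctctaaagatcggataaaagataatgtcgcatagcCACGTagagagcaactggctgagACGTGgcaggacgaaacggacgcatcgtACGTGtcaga
LEA7 (AT1G52690, chr1:19619474-19619723, plus strand): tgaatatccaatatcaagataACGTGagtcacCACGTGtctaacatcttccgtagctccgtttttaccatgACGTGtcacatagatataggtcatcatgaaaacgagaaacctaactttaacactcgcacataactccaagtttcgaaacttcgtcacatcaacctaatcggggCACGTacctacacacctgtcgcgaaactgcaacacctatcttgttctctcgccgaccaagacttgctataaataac
LTP4 (AT5G59310, chr5:23925958-23926207, minus strand): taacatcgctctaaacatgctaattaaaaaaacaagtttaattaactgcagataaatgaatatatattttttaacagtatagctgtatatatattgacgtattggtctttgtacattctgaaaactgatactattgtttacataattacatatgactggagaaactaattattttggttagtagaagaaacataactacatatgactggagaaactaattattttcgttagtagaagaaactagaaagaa
XTH6 (AT5G65730, chr5:26298478-26298727, plus strand): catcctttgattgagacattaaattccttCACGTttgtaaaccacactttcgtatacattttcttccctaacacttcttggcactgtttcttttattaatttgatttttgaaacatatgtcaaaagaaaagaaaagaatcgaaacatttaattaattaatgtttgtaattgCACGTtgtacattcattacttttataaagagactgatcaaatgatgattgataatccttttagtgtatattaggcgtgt

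The core occurred 3 times before RAB18, 4 times before RD29B, 5 times before LEA7 and 2 times before XTH6, the gene of this set that was lower. These letters are not in the windows before LTP4, HAI1, P5CS1 or PYL4. Over all 16629 genes past 5 CPM with a window, 24.2% held ACGTG on either strand, overlapping matches included. The share was 37.7% among the 2-fold higher genes, 24.8% among the 2-fold lower genes and 22.6% among the rest. Of the 76 genes at least 16-fold higher, 55.3% held it, and of the 51 genes at least 16-fold lower, 27.5%. For CCGAC, the core of the dehydration-responsive element, the shares were 13.9% of the higher, 12.2% of the lower and 13.2% of all genes. These are descriptions of letters in a window and were not tested.

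Beyond these, 16 of the 21 RD, COR, KIN and LEA genes past 5 CPM (22 listed) were at least 2-fold higher and 2 were lower, with a median log2 ratio of 2.52, although 7 of the 21 passed 5 CPM in labelled release only. TSPO, the gene of an ABA-induced membrane protein, had 186 CPM in labelled release and 1.24 CPM in the control, or 151-fold (98.3 to 244). LEA4-5 was 121-fold (83.3 to 182) higher and KIN1, a cold- and ABA-induced gene, 57.2-fold (43.2 to 77.6) higher, with 165 CPM in labelled release and 2.89 CPM in the control. RD29A had 1088 CPM in labelled release and 181 CPM in the control, and RD22, a marker of ABA-dependent dehydration, had 1299.5 CPM in labelled release and 322 CPM in the control. COR15B and ERD7 went the other way, with 6.598 CPM in labelled release against 17.97 CPM in the control for COR15B and 209 CPM in labelled release against 457 CPM in the control for ERD7. The dehydrins were split, as 3 of the 7 past 5 CPM were at least 2-fold higher. RAB18 is one, XERO1 (AT3G50980) had 41.03 CPM in labelled release and 0.354 CPM in the control, or 116-fold (53.02 to 317), and LTI30 176 CPM in labelled release and 25.5 CPM in the control. By contrast COR47 had 691 CPM in labelled release and 841 CPM in the control, ERD10 had 559 CPM in labelled release and 715 CPM in the control and ERD14 727 CPM in labelled release and 626 CPM in the control, all within 2-fold.

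Transcription factors of the drought response were mostly higher, 10 of the 13 past 5 CPM (15 listed) at least 2-fold, though 6 of the 13 reached 5 CPM in labelled release only. HSFA6A (AT5G43840), a heat shock factor gene, had 197 CPM in labelled release and 0.354 CPM in the control, or 558-fold (256 to 1520.4). The homeodomain factor genes HB-7 and HB-12 had 709.8 CPM in labelled release and 40.01 CPM in the control for HB-7, and 180.2 CPM in labelled release and 19.4 CPM in the control for HB-12, which are 17.7-fold (16.4 to 19.2) and 9.27-fold (8.26 to 10.4). RD26, a NAC factor gene, had 131 CPM in labelled release and 31.5 CPM in the control, NAC032 had 76.1 CPM in labelled release and 15.4 CPM in the control, and NF-YA5 had 33.8 CPM in labelled release and 4.95 CPM in the control. NAC055 was 2.56-fold (2.08 to 3.17) lower. Of 7 DREB and related genes past 5 CPM (12 listed), 3 were lower and 2 higher. All 3 lower genes, CBF1, CBF2 and DDF1, reached 5 CPM in the control only, and RAP2.6, one of the higher genes, in labelled release only. CBF2, a factor gene of the cold response, had 2.29 CPM in labelled release against 14.2 CPM in the control, and DDF1, of the same family, had 3.85 CPM in labelled release against 23.1 CPM in the control. DREB2A, which responds to dehydration, was 2.72-fold (2.37 to 3.12) higher, with 47.8 CPM in labelled release and 17.6 CPM in the control.

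Among genes with a symbol, DAA1, NADP-ME1 and CSLG2 also had large ratios and belonged to none of these families. DAA1, the gene of an ATPase, had 524 CPM in labelled release and 3.36 CPM in the control, or 156-fold (120.3 to 206). NADP-ME1, a malic enzyme gene, had 155 CPM in labelled release and 0.707 CPM in the control, or 219-fold (125 to 424). CSLG2, of the cellulose synthase-like genes, had 98.9 CPM in labelled release and 0.0589 CPM in the control, the control value being 1 read. Of genes without a symbol, chosen after their values were seen, AT2G37870, annotated as a lipid transfer family gene, had 245 CPM in labelled release and 0.648 CPM in the control. AT3G17520, annotated as LEA family, had 527 CPM in labelled release and 3.59 CPM in the control. Among genes with a symbol, the largest gain in CPM after RAB18 was that of GRP-3 (AT2G05520), a glycine-rich protein gene, with 4618 CPM in labelled release and 1149 CPM in the control. Next after LTP4 was ANNAT1, an annexin gene, with 1907 CPM in labelled release and 143 CPM in the control. EXT3, an extensin gene of the cell wall, had 2122 CPM in labelled release and 519.8 CPM in the control, and JAL22, a jacalin-related lectin gene, had 2327 CPM in labelled release and 809 CPM in the control.

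**Figure D2:**
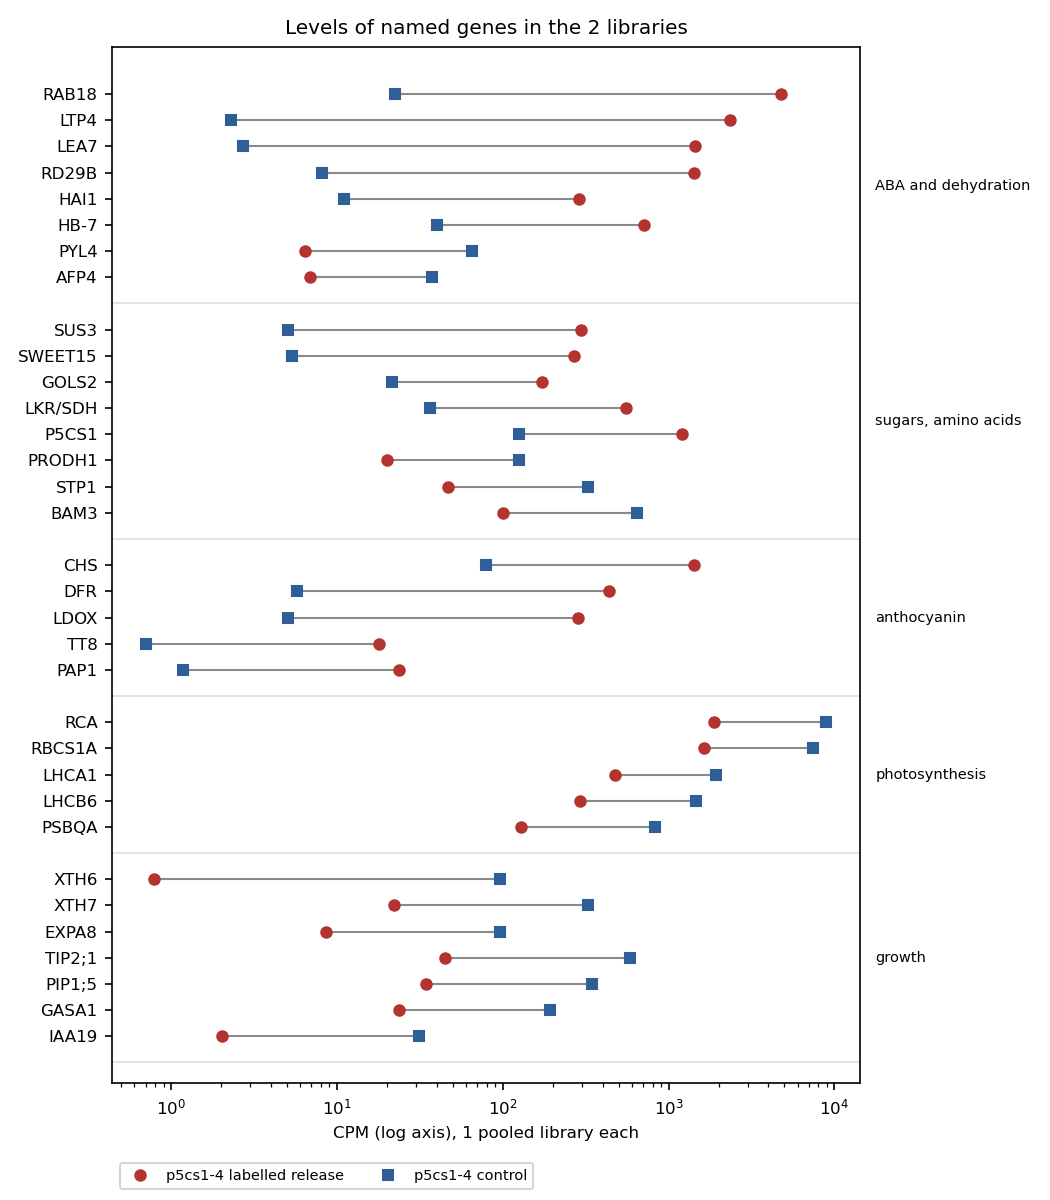
Levels in CPM (log axis) of 33 named genes in p5cs1-4 labelled release (red circles) and the p5cs1-4 control (blue squares), 1 pooled library each, grouped by role. Labelled release lies to the right for the dehydration and anthocyanin genes other than PYL4 and AFP4, and to the left for the photosynthesis and growth genes shown.

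Of 16 genes of sucrose metabolism and sugar transport, 7 were higher by 2-fold or more and 3 lower, SPS4F, SUC1 and STP1. SUS3 (AT4G02280), a sucrose synthase gene, had 295 CPM in labelled release and 5.07 CPM in the control, or 58.2-fold (47.05 to 72.95). SWEET15, a sucrose exporter gene of ageing leaves, had 267 CPM in labelled release and 5.36 CPM in the control, or 49.8-fold (40.5 to 62.004), and SPS2F, of sucrose phosphate synthase, was 5.86-fold (5.24 to 6.57) higher. STP1, a hexose transporter gene, was 7.02-fold (6.49 to 7.597) lower, with 46.5 CPM in labelled release and 326 CPM in the control, and SUC1, a sucrose transporter gene, 4.59-fold (4.18 to 5.04) lower. Among 24 starch genes past 5 CPM, 6 were at least 2-fold higher and 4 lower. APL3, a gene of the pyrophosphorylase that feeds starch synthesis, had 191 CPM in labelled release and 15.4 CPM in the control. APL1, of its main leaf form, had 60.5 CPM in labelled release and 194 CPM in the control. BAM3, the gene of the main leaf beta-amylase, was 6.38-fold (6.05 to 6.73) lower, with 101 CPM in labelled release and 642 CPM in the control. Of 11 genes of galactinol, raffinose and inositol, 4 were higher and 3 lower. GOLS2, of galactinol synthase, which starts the raffinose sugars, had 171 CPM in labelled release and 21.3 CPM in the control, or 8.03-fold (7.19 to 8.99). SIP2, annotated as a seed imbibition gene, was 6.26-fold (6.06 to 6.47) higher, and DIN10, annotated as raffinose synthase family, 5.14-fold (4.92 to 5.37) lower.

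Of 11 genes of amino acid breakdown, 3 were higher by 2-fold or more and 1 lower. LKR/SDH (AT4G33150), the gene of the bifunctional enzyme that starts lysine breakdown, had 556 CPM in labelled release and 36.5 CPM in the control, or 15.2-fold (14.04 to 16.5). MGL, of methionine gamma-lyase, had 289 CPM in labelled release and 35.9 CPM in the control, and BCAT2, of branched-chain aminotransferase, had 68.1 CPM in labelled release and 8.78 CPM in the control. BCAT1 was 10.8-fold (7.13 to 17.2) lower. Of 19 genes of nitrogen uptake and assimilation, 7 were at least 2-fold lower and 1 higher. The plastid glutamine synthetase gene GS2 was 3.49-fold (3.41 to 3.58) lower, with 561 CPM in labelled release and 1961 CPM in the control, and the cytosolic GLN1;3 3.06-fold (2.82 to 3.32) higher, with 145 CPM in labelled release and 47.6 CPM in the control.

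The anthocyanin branch of flavonoid synthesis was higher throughout. All 9 late genes were at least 2-fold higher, with a median log2 ratio of 4.72, although 4 of them reached 5 CPM in labelled release only. DFR (AT5G42800), dihydroflavonol reductase, had 438 CPM in labelled release and 5.77 CPM in the control, or 75.8-fold (62.1 to 93.5). LDOX (AT4G22880), which forms the coloured anthocyanidin, had 285 CPM in labelled release and 5.07 CPM in the control, or 56.3-fold (45.5 to 70.5), and the glutathione transferase gene TT19, needed to store the pigment, had 105 CPM in labelled release and 1.94 CPM in the control. UGT79B1, a sugar transferase gene, was 69.8-fold (41.4 to 128) higher. In the early branch 7 of 9 genes passed 2-fold upwards, and UGT78D1 downwards. CHS (AT5G13930), chalcone synthase, at the entry to the pathway, had 1429 CPM in labelled release and 78.7 CPM in the control, or 18.2-fold (17.2 to 19.2). F3H was 20.95-fold (17.1 to 25.9) higher but is uncertain, since a fraction of 0.951 of its reads in labelled release also map elsewhere. Of 10 regulators past 5 CPM, 4 were higher and 2 lower, but all 4 higher genes (PAP1, PAP2, TT8, MYB111) reached 5 CPM in labelled release only. PAP1 had 23.6 CPM in labelled release and 1.18 CPM in the control and TT8 17.9 CPM in labelled release and 0.707 CPM in the control, both activators, while MYBL2, a repressor of the branch, was 2.47-fold (2.18 to 2.81) lower. In p5cs1-4 labelled stress, set against the same control library, 4.03% of 16441 genes were 2-fold higher, 5.84% lower and 9.87% either. All 9 late genes were higher there too, with a median of 4.83, and DFR stood at 249 CPM in labelled stress and LDOX at 257 CPM.

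Most photosynthesis genes were lower. Of 23 nuclear genes of photosystem subunits, 22 were at least 2-fold lower (median -1.46), as were 18 of 21 light-harvesting genes (median -1.296), 15 of 20 Calvin cycle genes (median -1.502) and 8 of 11 photorespiration genes (median -1.18). No member of these 4 lists was at least 2-fold higher. Summed over 5 green-tissue markers (LHCB3, LHCB6, LHCA1, PSAF, RCA), all 5 of them lower, the level was 3836 CPM in labelled release and 16170 CPM in the control, within 3836 to 20380 CPM over the 9 libraries. In whole seedlings, fewer green cells and less RNA per cell cannot be told apart. The summed level of the photosystem genes was 9885 CPM in labelled release and 27158 CPM in the control, and that of the Calvin cycle genes 10046 CPM in labelled release and 38613 CPM in the control. RCA (AT2G39730), Rubisco activase, had the largest loss in CPM among genes with a symbol, with 1881 CPM in labelled release and 8936 CPM in the control, or 4.75-fold (4.69 to 4.81). RBCS1A (AT1G67090), a gene of the small Rubisco subunit, had 1639 CPM in labelled release and 7432 CPM in the control, or 4.53-fold (4.47 to 4.596). CA1 (AT3G01500), a plastid carbonic anhydrase gene, had 121 CPM in labelled release and 2536 CPM in the control, or 20.98-fold (20.03 to 21.99). RBCS3B was 11.7-fold (11.4 to 12.02) lower and RBCS2B 19.9-fold (18.9 to 20.9) lower, and as near-identical copies they are uncertain. LHCB6, of a minor antenna of photosystem II, had 291 CPM in labelled release and 1462 CPM in the control, LHCA1 of photosystem I had 476 CPM in labelled release and 1931 CPM in the control, and PSBQA, of the oxygen-evolving complex, had 128 CPM in labelled release and 823 CPM in the control. Within the LHCB1 copies, LHCB1.4 had 58.7 CPM in labelled release and 1285 CPM in the control and LHCB1.3 4834 CPM in labelled release and 9925 CPM in the control, which differ in fold but share reads and are uncertain.

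Enzymes of chlorophyll went the same way, 7 of 16 genes at least 2-fold lower and 2 higher. HEMA1, the entry step, was 3.64-fold (3.47 to 3.82) lower, with 134 CPM in labelled release and 487 CPM in the control, and CHLH, of magnesium chelatase, 2.77-fold (2.705 to 2.83) lower. Both higher genes act in chlorophyll breakdown, as does NYC1, one of the lower genes. PAO had 153 CPM in labelled release and 57.4 CPM in the control, and SGR2 had 12.3 CPM in labelled release and 0.943 CPM in the control, or 13.1-fold (7.86 to 23.4). SGR2 reached 5 CPM in labelled release only. The plastid desaturase genes FAD7 and FAD8, which make trienoic fatty acids, were 3.53-fold (3.33 to 3.75) and 9.72-fold (7.24 to 13.3) lower. Of 7 desaturase genes 3 were lower and none higher. Of 17 genes of plastid fatty acid synthesis, 16 had a ratio below 1 but only 2 reached 2-fold, ACP4 with 37.2 CPM in labelled release and 244 CPM in the control, and MOD1. Among all genes past 5 CPM 11.8% were lower, so the 2 are not read as a result about the list.

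Cell expansion genes included some of the lowest ratios. Of 21 XTH genes past 5 CPM, whose enzymes cut and rejoin wall xyloglucan, 10 were at least 2-fold lower and 3 higher, 3 of the 21 having reached 5 CPM in labelled release only and 5 in the control only. XTH6 (AT5G65730) had 0.784 CPM in labelled release and 96.7 CPM in the control, or 123-fold (70.4 to 239), and XTH7 had 22.1 CPM in labelled release and 327 CPM in the control, or 14.8-fold (13.3 to 16.6). XTH19 was 2.34-fold (2.02 to 2.704) higher, with 38.4 CPM in labelled release and 16.4 CPM in the control, and XTH14 and XTH20 were 3.56-fold (2.51 to 5.13) and 3.65-fold (2.35 to 5.85) higher. Of 15 expansin genes past 5 CPM, 5 were lower and 3 higher, with 2 past 5 CPM in labelled release only and 1 in the control only. EXPA8 had 8.56 CPM in labelled release and 95.7 CPM in the control, or 11.2-fold (9.36 to 13.5), and EXPA3 10.4 CPM in labelled release and 108 CPM in the control. Water channel genes followed, with 12 of 24 past 5 CPM (31 listed) at least 2-fold lower and 3 higher, with 3 past 5 CPM in labelled release only and 2 in the control only. TIP2;1, of the vacuole membrane, had 44.7 CPM in labelled release and 587 CPM in the control, or 13.1-fold (12.1 to 14.2). PIP1;5, of the plasma membrane, had 34.6 CPM in labelled release and 347 CPM in the control, or 10.03-fold (9.18 to 10.99), whereas PIP2;5 was 4.25-fold (3.42 to 5.33) higher, with 26.1 CPM in labelled release and 6.13 CPM in the control.

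The wall-associated genes FLA13 and FLA9, of fasciclin-like arabinogalactan proteins, had 2.61 CPM in labelled release and 107 CPM in the control for FLA13, and 6.86 CPM in labelled release and 178 CPM in the control for FLA9. The germin-like genes GER1 and GER3 had 11.4 CPM in labelled release and 454 CPM in the control for GER1 (AT1G72610), and 9.73 CPM in labelled release and 353 CPM in the control for GER3, differences of 39.7-fold (34.2 to 46.4) and 36.3-fold (30.8 to 42.97). Other genes at this end were NEET, of an iron-sulfur protein, with 3.397 CPM in labelled release and 108 CPM in the control, RAV1, a transcription factor gene, with 4.8998 CPM in labelled release and 136 CPM in the control, and MSRB6, of methionine sulfoxide reductase, with 3.01 CPM in labelled release and 88.8 CPM in the control. The peroxidase gene PRXCA was 41.4-fold (25.3 to 72.8) lower and the thionin gene THI2.2 153-fold (52.2 to 746) lower. Of lower genes without a symbol, also chosen after their values were seen, AT2G10940, annotated as a lipid transfer family gene, had 9.54 CPM in labelled release and 927 CPM in the control, and AT5G62360, annotated as a pectin methylesterase inhibitor, had 0.0653 CPM in labelled release and 68.4 CPM in the control.

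Of 19 auxin genes past 5 CPM, 8 were at least 2-fold lower and none higher, with 3 of the 19 past 5 CPM in the control only. IAA19, an early auxin response gene, had 2.03 CPM in labelled release and 31.1 CPM in the control, or 15.4-fold (10.7 to 22.8), and the auxin exporter gene PIN7 had 55.1 CPM in labelled release and 178 CPM in the control. Of 7 gibberellin-regulated GASA genes, 5 were at least 2-fold lower, with GASA1 at 23.6 CPM in labelled release against 193 CPM in the control, or 8.18-fold (7.33 to 9.14). GASA3 went the other way, with 31.9 CPM in labelled release and no read in the control, which is at least 180.4-fold higher when 3 reads are set in place of 0. GASA3 reached 5 CPM in labelled release only, and 1 of the 7 GASA genes in the control only. Of 11 gibberellin genes past 5 CPM, 2 were higher and 2 lower, and of 6 genes of brassinosteroid synthesis 1 was higher and 1 lower. RGL1, of a DELLA repressor, was 5.38-fold (4.24 to 6.903) lower. Of 17 ethylene genes past 5 CPM, 5 were lower and 2 higher. Both higher genes, ACS2 and ACO1, reached 5 CPM in labelled release only, and ACS8 and ACS11 in the control only. Of the synthesis genes, ACS11 and ACS8 were 36.5-fold (19.004 to 80.4) and 64.04-fold (21.6 to 313) lower, and ACS2 was 4.54-fold (2.79 to 7.71) higher at 5.62 CPM in labelled release against 1.24 CPM in the control. Of 10 cytokinin genes past 5 CPM, 4 were lower and none higher, but 5 of the 10 reached 5 CPM in the control only, among them the 4 lower genes ARR7, CKX4, CKX5 and CKX6. Of these, CKX6 is uncertain, since a fraction of 0.566 of its reads in the control are shared. Of 17 mitotic genes past 5 CPM, 2 were lower, CYCB1;2, of a cyclin, with 9.54 CPM in labelled release against 20.4 CPM in the control, and CDC20.1, and none higher, with 3 of the 17 past 5 CPM in the control only. Among all genes past 5 CPM, 8.4% were higher and 11.8% lower. The gibberellin, brassinosteroid and mitotic counts are given beside these shares and are not read as results about the lists.

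**Figure D3:**
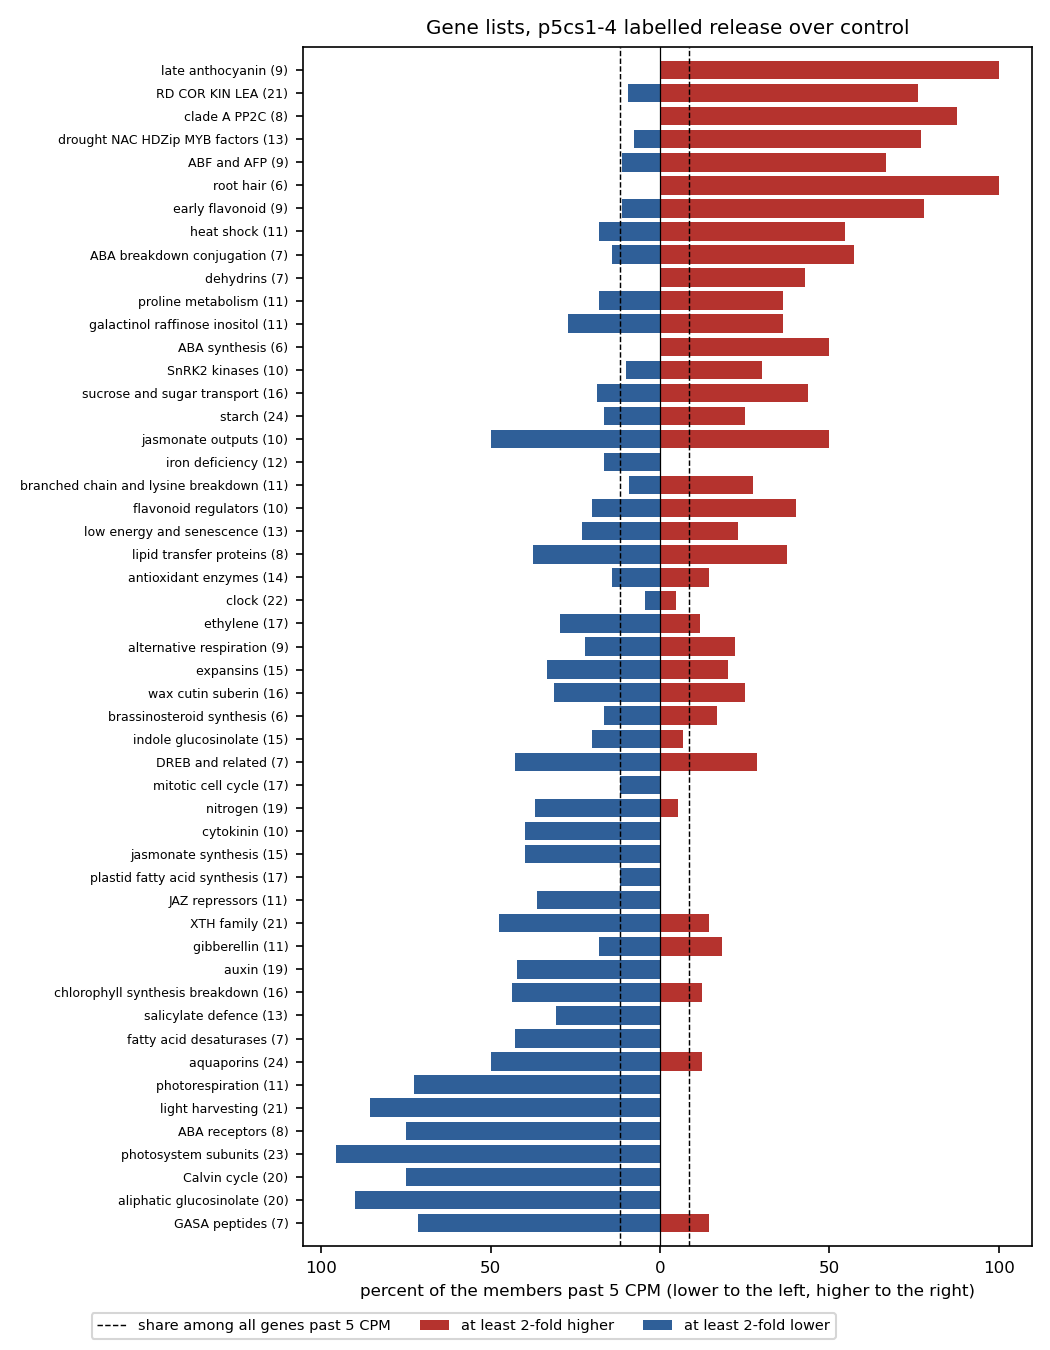
For each gene list with at least 5 members past 5 CPM (number in brackets), the percent of those members past 2-fold upwards (red, to the right) and downwards (blue, to the left) for p5cs1-4 labelled release over the p5cs1-4 control. The dashed lines are the 8.4% higher and 11.8% lower among all genes past 5 CPM; lists are ordered by median log2 ratio, with late anthocyanin at the top and GASA peptides at the bottom.

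Genes of aliphatic glucosinolates were mostly lower. Of 20 genes that make or regulate aliphatic glucosinolates, the methionine-derived defence compounds of the cabbage family, 18 were at least 2-fold lower and none higher (median -1.59). CYP79F1, the entry of the core pathway, had 54.4 CPM in labelled release and 372 CPM in the control, or 6.84-fold (6.36 to 7.36), and BCAT4, of chain elongation, had 62.3 CPM in labelled release and 314 CPM in the control. In the indole branch, made from tryptophan, 3 of 15 genes were lower, led by UGT74B1 at 2.703-fold (2.55 to 2.87), and IGMT2 was 2.504-fold (2.21 to 2.85) higher. The other 11 lay within 2-fold, with a median log2 ratio of -0.21 over the 15. Of these 15, 2 had over 0.5 of their reads shared and are uncertain. Among all genes past 5 CPM 8.4% were higher and 11.8% lower, so the indole counts are not read as a result about the list. The myrosinase gene TGG2, whose product activates glucosinolates, had 127 CPM in labelled release and 517 CPM in the control.

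Of 15 jasmonate synthesis and turnover genes, 6 were at least 2-fold lower and none higher. LOX3, of the first lipoxygenase step, had 40.4 CPM in labelled release and 233 CPM in the control, or 5.76-fold (5.29 to 6.28), and OPR3 had 78.7 CPM in labelled release and 302 CPM in the control. Of 11 genes of the JAZ repressors, which jasmonate removes, 4 were lower, JAZ9 with 53.8 CPM in labelled release against 268 CPM in the control and JAZ6 with 43.97 CPM in labelled release against 184 CPM in the control. Of 10 output genes past 5 CPM 5 were higher and 5 lower, 1 of each having reached 5 CPM in 1 library only. The vegetative storage protein gene VSP2 had 423 CPM in labelled release and 98.3 CPM in the control, VSP1 had 133 CPM in labelled release and 23.8 CPM in the control, and THI2.1, a thionin gene, had 50.9 CPM in labelled release and 0.354 CPM in the control. The factor genes ORA47 and ORA59 were among the lower genes, at 10.6-fold (8.37 to 13.5) and 11.7-fold (5.47 to 29.99). In p5cs1-4 labelled stress over the same control library, 8 of the 15 synthesis and turnover genes were lower (median -1.28). So were 7 of the 11 JAZ genes (median -1.58), and none of either list was higher. The medians in labelled release were -0.75 and -0.83. Of the 10 output genes, 4 were higher and 5 lower in labelled stress, where 5.84% of all genes were lower.

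Of 13 salicylate-related genes past 5 CPM (21 listed), all were below a ratio of 1 and 4 at least 2-fold lower. Of these 4, ACD6, LURP1 and PCC1 reached 5 CPM in the control only. WRKY70, a factor between the salicylate and jasmonate responses, had 5.81 CPM in labelled release and 78.9 CPM in the control, or 13.6-fold (10.9 to 17.01). ACD6, an ankyrin protein gene that promotes salicylate defence, had 1.503 CPM in labelled release and 87.3 CPM in the control, or 58.1-fold (38.6 to 91.97), and LURP1, a gene of late responses to an oomycete, had 1.05 CPM in labelled release and 39.8 CPM in the control, or 38.1-fold (23.3 to 67.1). PCC1 had no read in labelled release and 70.5 CPM in the control, which is at least 359.6-fold lower, with a fraction of 0.402 of its control reads shared. The central genes did not pass 2-fold of CPM + 1, EDS1 with 25.02 CPM in labelled release and 50.9 CPM in the control, NPR1 with 30.2 CPM in labelled release and 36.9 CPM in the control, and ICS1, of salicylate synthesis, with 8.36 CPM in labelled release and 17.1 CPM in the control. PR1, the classic marker, was under 1 CPM in both, with 0.719 CPM in labelled release and 0.471 CPM in the control. In p5cs1-4 labelled stress, set against the same control library, 5 of the 13 salicylate-related genes were lower and none higher. The log2 ratios there were -4.30 for LURP1, -5.67 for PCC1, -3.37 for ACD6 and -2.92 for WRKY70. Among all genes in that comparison 5.84% were lower.

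Of 3 ferritin genes past 5 CPM 2 were lower, and none was higher. The iron-storage genes FER3 and FER4 were 4.12-fold (3.58 to 4.76) and 4.202-fold (3.46 to 5.13) lower, with 15.6 CPM in labelled release and 64.3 CPM in the control for FER3. Of 12 iron-uptake genes past 5 CPM, 2 were lower, IRT1, of the root iron transporter, with 0.523 CPM in labelled release against 5.303 CPM in the control, and NAS4. IRT1 reached 5 CPM in the control only, and among all genes past 5 CPM 11.8% were lower. Of 14 antioxidant enzyme genes past 5 CPM, 2 were higher, 2 lower and 10 within 2-fold, with a median log2 ratio of -0.10. Beside 8.4% higher and 11.8% lower among all genes, these counts are not read as a result about the list. Of the superoxide dismutases, the copper-zinc forms CSD1 and CSD2 were 3.899-fold (3.56 to 4.27) and 2.61-fold (2.28 to 3.01) higher, and the iron form FSD1 2.62-fold (2.53 to 2.72) lower, with 255 CPM in labelled release and 669.7 CPM in the control. Of 9 genes of alternative respiration past 5 CPM, 2 were higher and 2 lower. AOX1D, an alternative oxidase gene, had 14.6 CPM in labelled release and 0.825 CPM in the control, past 5 CPM in labelled release only, and NDB2, of an external NADH dehydrogenase, was 3.41-fold (2.96 to 3.95) higher. The lower genes were NDA1, of an internal NADH dehydrogenase, with 27.8 CPM in labelled release and 65.3 CPM in the control, and UCP5, of a mitochondrial carrier, with 72.4 CPM in labelled release and 201 CPM in the control. Of 11 heat shock genes past 5 CPM, 6 were higher and 2 lower, but 4 of the higher genes reached 5 CPM in labelled release only and HSFA3, a lower one, in the control only. HSP22.0, of a small heat shock protein, had 38.4 CPM in labelled release and 1 read in the control, and HSP17.4 had 29.3 CPM in labelled release and 5.07 CPM in the control. Of 22 clock genes, 20 lay within 2-fold. CHE, a repressor of CCA1, was the exception at the lower end, with 6.79 CPM in labelled release against 59.2 CPM in the control, and ELF4 at the upper, with 75.1 CPM in labelled release against 33.4 CPM in the control. CCA1 itself had 76.8 CPM in labelled release and 59.2 CPM in the control.

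Markers of root hairs, seeds and flowers were summed in the same way. Over 6 root hair markers the sum was 56.8 CPM in labelled release and 14.9 CPM in the control, in a range of 12.9 to 101 CPM, with 5 of 6 at least 2-fold higher. Of the 13 genes of the wider root hair list, 6 passed 5 CPM, all in labelled release only, so that their direction was fixed by the floor. RHD6, the factor gene that starts root hairs, had 9.47 CPM in labelled release and 0.648 CPM in the control, and RHD2, of the oxidase at the hair tip, 19.3 CPM in labelled release and 4.48 CPM in the control. The 11 seed markers summed to 7.84 CPM in labelled release and 4.01 CPM in the control, with none at 5 CPM and 3 at 0 reads in each library. The 5 flower markers summed to 8.49 CPM in labelled release and 11.02 CPM in the control. The part of these markers in the results was not tested.

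**Figure D4:**
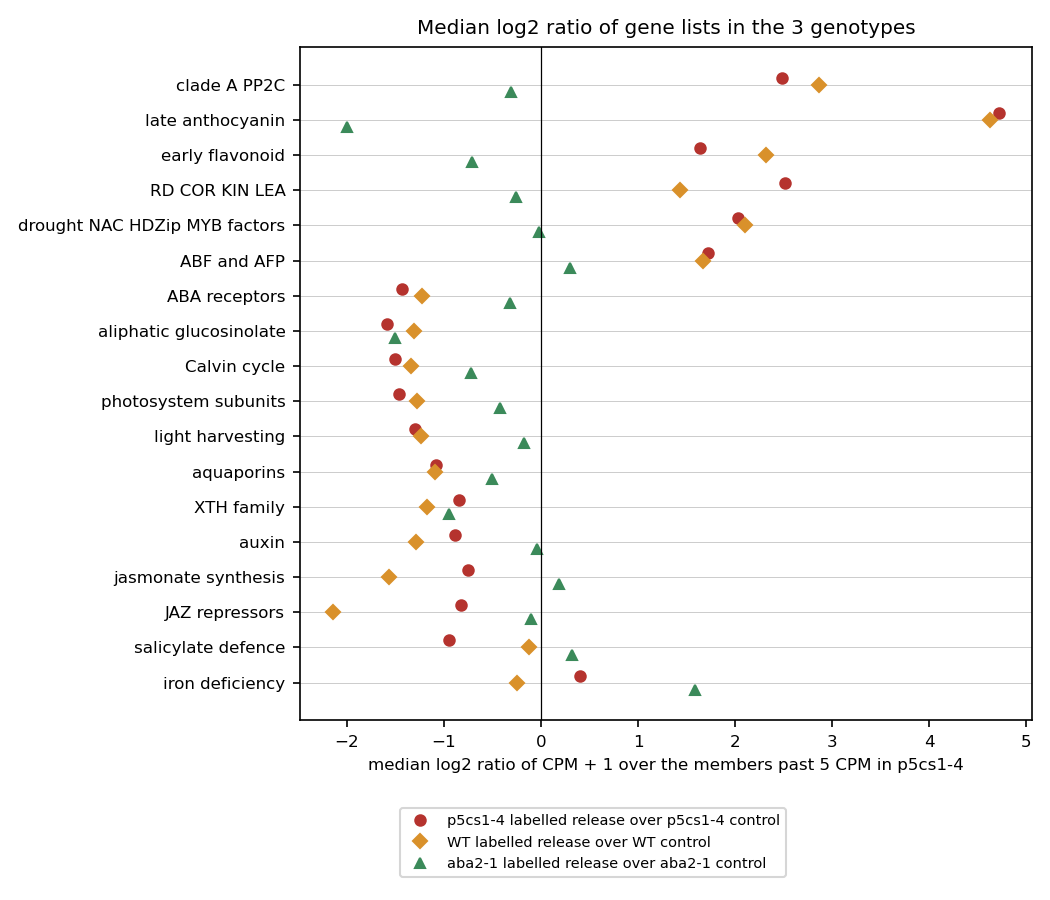
Median log2 ratio of CPM + 1 for 18 gene lists in p5cs1-4 labelled release over p5cs1-4 control (red circles), WT labelled release over WT control (orange diamonds) and aba2-1 labelled release over aba2-1 control (green triangles), over the members past 5 CPM in p5cs1-4. The p5cs1-4 and WT medians share a sign for 17 of the 18 lists, iron deficiency being the other. The 18 were picked by hand from the 55 lists, so this count does not stand for all lists. Among those not drawn, the signs differ for lipid transfer proteins, jasmonate outputs, clock and flower organ identity. The aba2-1 medians of the phosphatase, RD, COR, KIN and LEA, and flavonoid lists lie below 0.

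Most of the genes called in p5cs1-4 were also called in WT, in the same direction. In WT, 2125 genes (12.7%) were higher by 2-fold or more, 2348 (14%) were lower, and 26.8% either. Of the 1408 higher genes of p5cs1-4, 1028 were also higher in WT, which is 73.0% of the p5cs1-4 and 48.4% of the WT genes. Of the 1976 lower genes, 1419 were shared, 71.8% of the p5cs1-4 and 60.4% of the WT genes. Only 5 of the higher and 5 of the lower genes went at least 2-fold the other way in WT. The 2 comparisons share no library. RAB18, for example, had 4778 CPM in p5cs1-4 labelled release and 22.4 CPM in the p5cs1-4 control, and 4950.3 CPM in WT labelled release and 31.4 CPM in the WT control. For PYL4, the log2 ratio was -3.17 in p5cs1-4 and -3.61 in WT, and for DFR 6.02 in p5cs1-4 and 6.15 in WT.

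Jasmonate and defence genes were set beside their values in WT. The JAZ list had a median log2 ratio of -0.83 in p5cs1-4 and -2.14 in WT, and jasmonate synthesis -0.75 in p5cs1-4 and -1.57 in WT. JAZ10 had 19.99 CPM in p5cs1-4 labelled release and 36.3 CPM in the p5cs1-4 control, against 1.38 CPM in WT labelled release and 27.2 CPM in the WT control. LOX3 had 12.3 CPM in WT labelled release and 359 CPM in the WT control, a log2 ratio of -4.76 where p5cs1-4 had -2.496. LURP1 and PR1 had the 2 most negative differences of log2 ratio from WT. PR1 had 92.0 CPM in WT labelled release and 0.233 CPM in the WT control. LURP1 had 129 CPM in WT labelled release and 32.4 CPM in the WT control, so it was higher there and lower in p5cs1-4. ANK, of an ankyrin protein, went the same ways. PR1, AIG1, a gene induced by avirulent bacteria, and PCR1, of cadmium resistance, were under 5 CPM in both p5cs1-4 libraries, so no direction is read for them there. For AIG1, PCR1 and ANK the log2 ratios were -1.54, -1.01 and -2.398 in p5cs1-4 and 3.63, 3.55 and 2.39 in WT. The potassium transporter gene HAK5 went the opposite way, with 20.6 CPM in p5cs1-4 labelled release and 7.48 CPM in the p5cs1-4 control, and 1.61 CPM in WT labelled release and 8.85 CPM in the WT control. These differences rest on 1 library a group and were not tested.

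**Figure D5:**
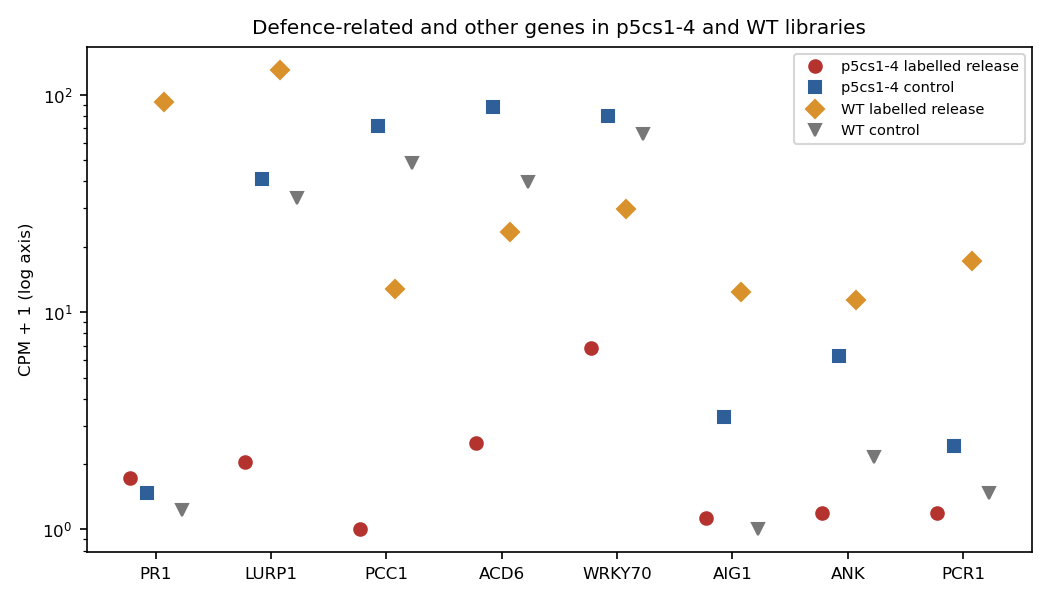
Levels (CPM + 1, log axis) of 8 genes in p5cs1-4 labelled release (red circles), the p5cs1-4 control (blue squares), WT labelled release (orange diamonds) and the WT control (grey triangles), 1 pooled library each. PR1 reaches 92.0 CPM and LURP1 129 CPM in WT labelled release, while every p5cs1-4 labelled release value shown is under 6 CPM.

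In aba2-1 the share of genes in common was smaller. There 753 genes (4.56%) were higher by 2-fold or more and 928 (5.62%) lower, 10.2% in all. Of the 1408 higher genes of p5cs1-4, 184 were also higher in aba2-1, 13.1% of the p5cs1-4 and 24.4% of the aba2-1 genes, and 132 were at least 2-fold lower. Of the 1976 lower genes, 320 were also lower, 16.2% of the p5cs1-4 and 34.5% of the aba2-1 genes, and 62 were higher. PRODH1 was lower in both, with a log2 ratio of -2.57 in p5cs1-4 and -2.92 in aba2-1. Aliphatic glucosinolate genes had a median of -1.59 in p5cs1-4 and -1.503 in aba2-1. RAB18 had 66.2 CPM in aba2-1 labelled release and 252 CPM in the aba2-1 control, and LTP4 41.3 CPM in aba2-1 labelled release and 478 CPM in the aba2-1 control. For both, the aba2-1 control lay above the p5cs1-4 control, as it did for the late anthocyanin genes. DFR had 114 CPM in aba2-1 labelled release and 391 CPM in the aba2-1 control, beside 5.77 CPM in the p5cs1-4 control and 6.99 CPM in the WT control. The 9 late genes summed to 409.6 CPM in aba2-1 labelled release and 1529 CPM in the aba2-1 control, beside 80.4 CPM in the p5cs1-4 control and 97.3 CPM in the WT control. The light-harvesting genes had a median of -1.296 in p5cs1-4 and -0.18 in aba2-1. These values of aba2-1 stand beside those of p5cs1-4 as levels, and the difference between the genotypes was not tested.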

How the data were processed

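Polyadenylated RNA of whole seedlings was sequenced in 9 libraries, each a pool of 3 experiments. Libraries took 18 PCR cycles and carried no molecular identifiers, per the labels' protocols. Per the submitters' processing notes, CASAVA 1.6 and TAIR10 were used, with no role given. The aligner, the counter and the use of strand are not given in the sources used here. Per the file headers, each deposited table of 33518 genes holds estimated counts, RPKM and the fraction of reads that map to several places. In the deposited estimated counts, 92.3% of values were whole within 1e-06 in both p5cs1-4 libraries, and 3.18% of reads in labelled release and 3.88% in the control were shared between genes. The deposited RPKM are reads per gene length and library total, per the file headers. The deposited fraction runs from 0 to 1.

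Estimated counts were rounded and scaled to CPM with TMM factors over the 9 libraries (edgeR 4.0.16, R 4.3.3). Log2 ratios used a pseudocount of 1 CPM, and genes needed 5 CPM in either library and a 2-fold ratio to be counted. With 1 library a group no p-value was computed, and nothing shows the spread between seedlings or experiments. Folds have an exact 95% conditional (Clopper-Pearson) interval. They cover counting error only. A count of 0 was set to 3 reads in that library (0.196 CPM in labelled release, 0.177 CPM in the control). Locus tags matched TAIR10.1 for 32709 genes (97.6%), which gave symbols, coordinates and the 250 bases before each gene. Genes with over 0.5 of their reads shared are given as uncertain.

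The comparison, the 55 gene lists (819 genes) and the rules were chosen with earlier results of these data known. The text names P5CS1, PRODH1 and RAB18, the 12 largest and 12 smallest ratios and the 6 largest CPM gains and losses among genes with a symbol and at most 0.5 of reads shared. From each list it draws on up to 5 members past 2-fold in the main direction and up to 2 in the other, and on the 6 most positive and 6 most negative differences from WT. Other members of a list are named beside them as examples chosen after their values were seen. The alternatives tried were RPKM as deposited, reads that map to 1 place only, size factors from DESeq2 1.42.0 (median of ratios), a pseudocount of 0.1 CPM, and a floor of either 20 CPM or none.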

Additional observations from a re-analysis of the deposited data

Results flagged for a closer look

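In 41 named genes 1 comparison was at least 2-fold up where the same comparison in another genotype was at least 2-fold down. In p5cs1-4, 281 named genes were past 2-fold. Over all genes, 132 of the 1408 higher genes of p5cs1-4 (9.4%) were lower in aba2-1, and 62 of the 1976 lower genes (3.1%) higher. In WT 5 of each went the other way. Genes were named for large ratios or large differences from WT, so the 41 is not read as more than these shares. Each side is 1 library, so the difference between genotypes was not tested. Values are log2 ratios of labelled release over the control of the same genotype.

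Among protective proteins, 38 of the 41 genes being set against aba2-1, the ratio was 9.47 in p5cs1-4 and -3.50 in aba2-1 for LTP4, 8.60 in p5cs1-4 and -1.05 in aba2-1 for LEA7 and 8.21 in p5cs1-4 and -2.55 in aba2-1 for LTP3. It was 7.67 in p5cs1-4 and -1.91 in aba2-1 for RAB18, 7.28 in p5cs1-4 and -1.09 in aba2-1 for RD29B and 6.39 in p5cs1-4 and -1.55 in aba2-1 for TSPO. A further ratio was 3.41 in p5cs1-4 and -1.37 in aba2-1 for LTP2 and -1.32 in p5cs1-4 and 1.15 in aba2-1 for COR15B. For regulators it was 7.19 in p5cs1-4 and -1.44 in aba2-1 for HSFA6A, 5.74 in p5cs1-4 and -1.58 in aba2-1 for HAI2 and 4.58 in p5cs1-4 and -1.35 in aba2-1 for HAI1. The last of these was 2.13 in p5cs1-4 and -1.83 in aba2-1 for RAP2.6.

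In the flavonoid branch the ratio was 6.02 in p5cs1-4 and -1.77 in aba2-1 for DFR, 5.56 in p5cs1-4 and -1.66 in aba2-1 for LDOX and 5.17 in p5cs1-4 and -2.25 in aba2-1 for TT19. Next in the branch it was 5.004 in p5cs1-4 and -2.53 in aba2-1 for UGT79B1, 4.72 in p5cs1-4 and -2.95 in aba2-1 for AT4G14090 and 4.17 in p5cs1-4 and -1.16 in aba2-1 for CHS. Early genes had 3.24 in p5cs1-4 and -1.57 in aba2-1 for F3'H and 1.71 in p5cs1-4 and -1.89 in aba2-1 for UGT78D2. Of the regulators, the ratio was 3.50 in p5cs1-4 and -1.54 in aba2-1 for PAP1, 3.47 in p5cs1-4 and -2.04 in aba2-1 for TT8 and 2.24 in p5cs1-4 and -2.98 in aba2-1 for PAP2. The late genes were high in the aba2-1 control. DFR had 114 CPM in aba2-1 labelled release and 391 CPM in the aba2-1 control, beside 5.77 CPM in the p5cs1-4 control. The part of that control library in the opposite ratios was not tested.

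Elsewhere the ratio was 6.56 in p5cs1-4 and -2.57 in aba2-1 for CSLG2, 2.64 in p5cs1-4 and -1.47 in aba2-1 for SIP2 and 2.54 in p5cs1-4 and -1.49 in aba2-1 for CORI3. It stood at -2.13 in p5cs1-4 and 2.32 in aba2-1 for ORA59, -1.37 in p5cs1-4 and 2.10 in aba2-1 for NAS4 and 1.43 in p5cs1-4 and -2.40 in aba2-1 for LRX1. Values were 1.33 in p5cs1-4 and -1.72 in aba2-1 for RHS19, -1.90 in p5cs1-4 and 4.31 in aba2-1 for PGLP1 and 3.09 in p5cs1-4 and -1.45 in aba2-1 for AOX1D. Also on this list was 1.34 in p5cs1-4 and -1.08 in aba2-1 for CSD2, 2.32 in p5cs1-4 and -2.52 in aba2-1 for HSP17.4 and -1.60 in p5cs1-4 and 2.41 in aba2-1 for GASA6. The genes went on with 1.56 in p5cs1-4 and -1.54 in aba2-1 for ACS2, 2.54 in p5cs1-4 and -2.46 in aba2-1 for SAG13 and -1.22 in p5cs1-4 and 2.06 in aba2-1 for SEN1. Almost all reads of PGLP1 also map elsewhere, so its values are uncertain.

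Against WT, 3 genes were of this kind, with -4.32 in p5cs1-4 and 1.96 in WT for LURP1, 1.35 in p5cs1-4 and -1.92 in WT for HAK5 and -2.40 in p5cs1-4 and 2.39 in WT for ANK.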

How the results depend on the processing

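Over the 6 alternatives, the count of genes at least 2-fold higher ran from 826 with a floor of 20 CPM to 1796 with no floor, and that of lower genes from 1450 to 2238. The 826 was the only count over all genes to move by more than 1.5 times. With the RPKM as deposited, 1583 genes were higher and 1470 lower. Of the 281 named genes past 2-fold, all 281 stayed past it under a pseudocount of 0.1, no floor and median-of-ratios scaling. The number was 278 with reads that map to 1 place only, 258 with RPKM (11 under the floor, 12 under 2-fold) and 227 with a floor of 20 CPM, where the other 54 were under the floor, and none changed direction. Of 110 counts over lists, 15 moved by more than 1.5 times with RPKM, 22 with the floor of 20 CPM and 11 with no floor. List medians moved past the counting interval of their middle member in 32 of 54 lists with RPKM, 18 of 52 with the floor of 20 CPM and 21 of 54 with no floor. Of 271 named-gene ratios, 189 moved past their counting interval with RPKM. No paired analysis was possible because each group is 1 library. Depth limits genes under 5 CPM in both libraries, whose values are given with no direction read.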

Other observations

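Lipid transfer genes outside the LTP3 and LTP4 pair differed from WT in the EARLI1 group. EARLI1 had 4.44 CPM in p5cs1-4 labelled release and 8.13 CPM in the p5cs1-4 control, and AZI1, a gene of systemic defence priming, had 2.87 CPM in p5cs1-4 labelled release and 13.1 CPM in the p5cs1-4 control. Their log2 ratios were -0.75 and -1.86 in p5cs1-4, 3.31 and 0.81 in WT and -2.16 and -3.62 in aba2-1. The EARLI1 ratio in p5cs1-4 and the AZI1 ratio in WT were under 2-fold. In p5cs1-4 both genes reached 5 CPM in the control only among the 2 libraries compared. AZI1 had 6.89 CPM in WT labelled release and 3.49 CPM in the WT control, and 118.7 CPM in p5cs1-4 labelled stress. These genes were singled out after their values were seen, and the differences were not tested.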
